A study of Mus musculus with 8 samples.

Results

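Sugar reaches the cells of the brain through hexose transporters, and lactate moves between them through monocarboxylate transporters. The 10 genes described here are 3 hexose transporters of the GLUT family (Slc2a1, Slc2a3 and Slc2a5), the related inositol transporter Slc2a13, 3 monocarboxylate transporters (Slc16a1, Slc16a3 and Slc16a7), the lactate dehydrogenase subunits Ldha and Ldhb, and the brain form of glycogen phosphorylase, Pygb. All 10 were found by symbol among the 22609 genes of the deposited table. The set was selected on the result for Slc2a5, which had one of the smallest p-values in the comparison of conditioned with control mice, and the other 9 genes were added for their function. The values of Slc2a5 in that comparison are therefore given as a description, with no test.

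RNA came from the medial prefrontal cortex (anterior cingulate part, both hemispheres) of B6.SJL mice aged 3 months, taken 1 h after training. In the fear conditioning group (4 samples), mice explored a chamber for 3 min and then received 2 foot shocks of 0.8 mA, each lasting 2 s. In the context control group (4 samples), mice were placed in the chamber in the same way and received no shock. Both groups had thus seen the chamber, and no group of untouched mice was analysed here. The series calls the samples biological replicates, and whether a replicate was 1 animal, and of which sex, is not given in the sources used here. The comparison asks how this region of neocortex differs 1 h after exposure to the chamber with shocks and without them. Effects of the shocks themselves and of forming a fear memory cannot be told apart with these groups.

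In the brain, glucose crosses the vessel wall through GLUT1 (Slc2a1), which endothelial cells and astrocytes carry, and enters neurons mainly through GLUT3 (Slc2a3). Astrocytes store glycogen and break it down with glycogen phosphorylase. They can pass lactate on through MCT1 (Slc16a1) and MCT4 (Slc16a3), and neurons take lactate up through the high-affinity carrier MCT2 (Slc16a7). In rodents, blocking glycogen breakdown or these carriers impairs the formation of long-term memory. GLUT5 (Slc2a5) is a fructose transporter that is found mainly in microglia in the mouse brain.

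Each value is a gene's read count divided by a factor for its sample, here called a scaled count, and is not corrected for gene length. The samples held between 1992452 and 3565356 recovered gene reads, with 2306717 to 3338920 in the fear conditioning group and 1992452 to 3565356 in the context control group. Cortical neuron markers were well detected in every sample, with Slc17a7, the vesicular glutamate transporter of cortical excitatory neurons, between 1525 and 3162 in fear conditioning and between 1731 and 2847 in context control. Defining markers of microglia, endothelium, mural cells, astrocytes, oligodendrocytes and their precursors were above 0 in all 8 samples. Of the 3 defining blood markers, Hba-a1 was listed at 0 in every sample and Hbb-b1 at 0 in 3. The third, Alas2, was above 0 in all 8, from 4.80 to 17.2 in fear conditioning and from 5.37 to 46.4 in context control. The 6 blood genes in the table summed to 36.5 to 101 in fear conditioning and 86.0 to 147 in context control, so blood transcripts were present. The libraries differed in how strongly they favoured genes rich in guanine and cytosine (GC), a difference that is described after the values of the members.

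Promoters are shown for 4 members, Slc2a5 because it was the member whose groups stood apart, and Slc2a1, Slc16a3 and Ldha because they are textbook targets of the hypoxia-inducible factor HIF. Sequences are from RefSeq, build GRCm38.p6, and run 5′ to 3′ on the gene's strand from 250 bases before to 50 bases after the annotated start. Promoters were listed for 8 of the 10 members, 9 promoters in all. Capitals mark the core of the hypoxia response element, ACGTG, or its reverse complement CACGT, and the palindrome CACGTG counts as 1 match to each.
Slc2a5, chr4:150119094-150119393, plus strand: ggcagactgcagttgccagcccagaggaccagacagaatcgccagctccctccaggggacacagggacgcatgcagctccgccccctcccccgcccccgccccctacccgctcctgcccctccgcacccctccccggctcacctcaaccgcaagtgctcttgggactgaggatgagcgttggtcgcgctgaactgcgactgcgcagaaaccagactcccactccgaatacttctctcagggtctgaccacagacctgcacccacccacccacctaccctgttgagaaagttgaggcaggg
Slc2a1, chr4:119108495-119108794, plus strand: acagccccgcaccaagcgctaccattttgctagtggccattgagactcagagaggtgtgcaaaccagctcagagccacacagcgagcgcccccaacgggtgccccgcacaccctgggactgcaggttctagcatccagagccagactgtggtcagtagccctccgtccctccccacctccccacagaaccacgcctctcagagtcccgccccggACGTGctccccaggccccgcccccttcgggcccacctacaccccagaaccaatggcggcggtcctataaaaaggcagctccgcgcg
Slc16a3, chr11:120948817-120949116, plus strand: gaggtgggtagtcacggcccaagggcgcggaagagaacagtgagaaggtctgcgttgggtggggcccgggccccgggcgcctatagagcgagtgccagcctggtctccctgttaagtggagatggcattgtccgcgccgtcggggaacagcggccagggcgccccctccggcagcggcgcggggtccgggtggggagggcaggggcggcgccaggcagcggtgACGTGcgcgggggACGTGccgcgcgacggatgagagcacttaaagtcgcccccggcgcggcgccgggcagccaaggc
Ldha, chr7:46845554-46845853, plus strand: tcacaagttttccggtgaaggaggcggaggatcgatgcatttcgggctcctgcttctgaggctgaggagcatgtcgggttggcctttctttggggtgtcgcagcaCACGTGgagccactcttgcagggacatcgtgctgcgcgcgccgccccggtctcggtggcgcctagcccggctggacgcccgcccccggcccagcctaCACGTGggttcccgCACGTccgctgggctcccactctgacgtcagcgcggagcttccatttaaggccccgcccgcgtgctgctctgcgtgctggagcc
The core was present in 5 of the 9 member promoters, against 19.6% of the 32851 promoters in the table. Of the promoters printed, Ldha had 5 matches, Slc16a3 had 2, Slc2a1 had 1 and Slc2a5 had 0. Of the others, Slc16a1 had 3 and Pygb 1, while a second Ldha promoter (chr7:46846832-46847131), Ldhb and Slc2a13 had 0. A match describes the letters only, and no binding was measured.

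Slc2a5 was lower in every conditioned sample than in any control. The gene lies at chr4:150119283-150144169, plus strand (GRCm38, GENCODE vM21, as for the positions of the other members). It read 11.0, 18.6, 16.4 and 11.5 scaled counts in fear conditioning replicates 1 to 4, against 29.9, 32.2, 27.2 and 49.9 in context control replicates 1 to 4. The highest value in fear conditioning, 18.6, lay below the lowest in context control, 27.2. The mean was 14.4 ± 3.69 in fear conditioning and 34.8 ± 10.3 in context control (SD, n = 4 each), which is 41.3% of the control mean and a log2 change of -1.21 (SE 0.34) on the log2(value + 1) scale. These values rest on few reads, 8, 14, 12 and 12 in the conditioned samples and 36, 24, 27 and 31 in the controls. Complete separation of the groups, in either direction, was found for 282 of the 14704 genes tested (1.92%), and Slc2a5 was the only member among them. Its own separation is no support for a change, since it was chosen from this comparison.

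Because Slc2a5 marks microglia, its values were set beside a list of 17 other microglial genes. The list sum was 2602, 2841, 2447 and 2564 in fear conditioning replicates 1 to 4, against 2819, 2717, 3442 and 3270 in context control replicates 1 to 4, and these ranges overlapped. Of the 17 markers, 15 were lower and 2 higher in conditioned samples, none passed the test, and the groups overlapped for each of them. Their median log2 change was -0.28, where the median of all tested genes was 0.0095. The chemokine receptor gene Cx3cr1 averaged 282 ± 41.6 in fear conditioning and 310 ± 70.3 in context control (SD, n = 4 each), and the growth factor receptor gene Csf1r averaged 398 ± 93.6 in fear conditioning and 474 ± 30.3 in context control. Aif1, which encodes the calcium-binding protein IBA1, had the largest negative change of the list at -0.73 (SE 0.36), and Fcrls the largest positive one at 0.62 (SE 0.29).

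Per 1000 scaled counts of the microglial list, Slc2a5 had 4.25, 6.54, 6.70 and 4.49 in fear conditioning replicates 1 to 4, against 10.6, 11.9, 7.91 and 15.3 in context control replicates 1 to 4. The mean of this ratio was 5.49 ± 1.31 in fear conditioning and 11.4 ± 3.05 in context control (SD, n = 4 each), and the groups did not overlap. The difference between Slc2a5 and the list was not tested, since Slc2a5 was chosen by the same comparison. In bulk tissue, fewer cells of a type and less RNA per cell cannot be told apart.

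**Figure D1:**
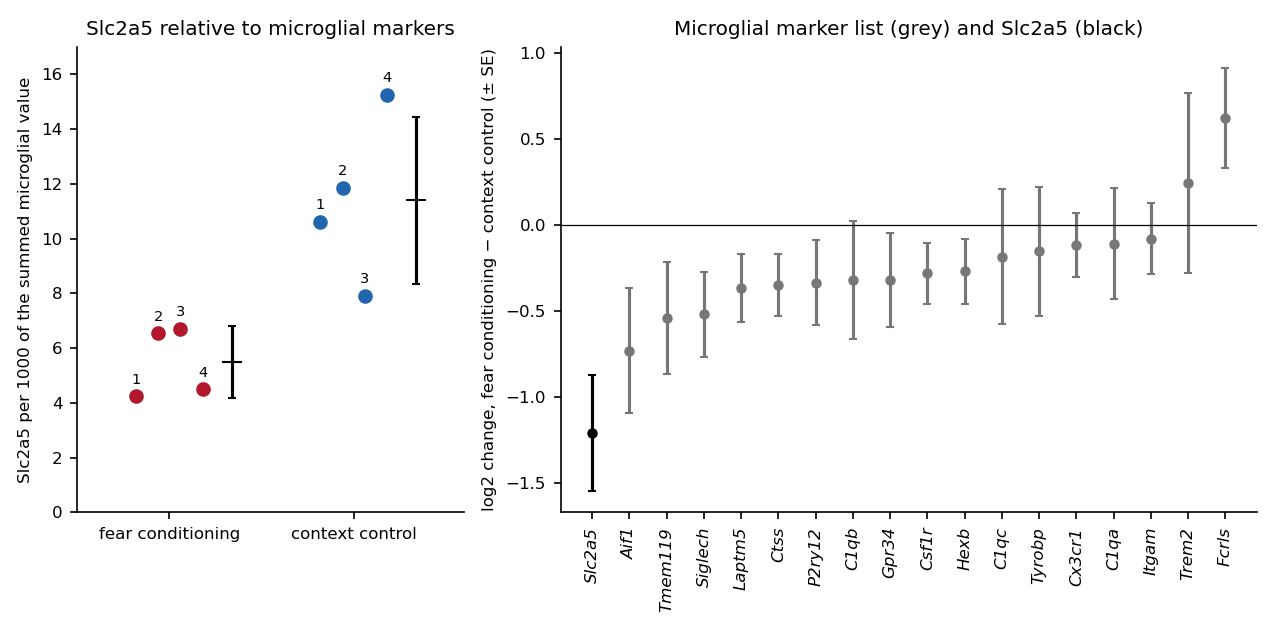
Left, Slc2a5 per 1000 of the summed scaled counts of 17 microglial markers in each sample (points numbered by replicate; bar, mean ± SD, n = 4). Right, log2 change of each marker (grey) and of Slc2a5 (black), fear conditioning minus context control, with SE. Slc2a5 lies at -1.21, and 15 of the 17 markers lie below 0 with the lowest at -0.73.

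The genes whose course over the 8 samples lay nearest to that of Slc2a5, among 12042 candidates, were Pop4, Cd33, Neu4, Efna1 and Ntf3. Likeness was measured as the root mean square difference between log2 values centred on each gene's mean, which was 0.31, 0.33, 0.34, 0.36 and 0.36 in that order. Pop4, a subunit of ribonuclease P, averaged 58.6 ± 18.4 in fear conditioning and 106 ± 7.64 in context control (SD, n = 4 each). Cd33, a sialic acid receptor of myeloid cells, averaged 15.6 ± 4.12 in fear conditioning and 27.8 ± 8.33 in context control. Neu4, a sialidase and marker of oligodendrocyte precursors, averaged 21.2 ± 4.39 in fear conditioning and 40.8 ± 4.97 in context control. None of the 5 passed the test, and their choice by likeness to Slc2a5 fixes the direction.

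None of the other 9 members passed the threshold between conditioned and control cortex (limma, adjusted p = 0.9998 for each). In the same fit 0 of 14704 genes passed, which is 0%, and 397 genes (2.7%) had an unadjusted p under 0.05, none of the 9 among them. Count models fitted to the recovered reads gave 0 genes past the threshold as well, and an unadjusted p below 0.05 for 340 genes in DESeq2 and 385 in edgeR. Of the 9, 5 were higher and 4 lower in fear conditioning, with log2 changes between -0.20 and 0.69. The median over all 10 members was 0.03. For all 9, the samples of both groups overlapped.

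**Figure D2:**
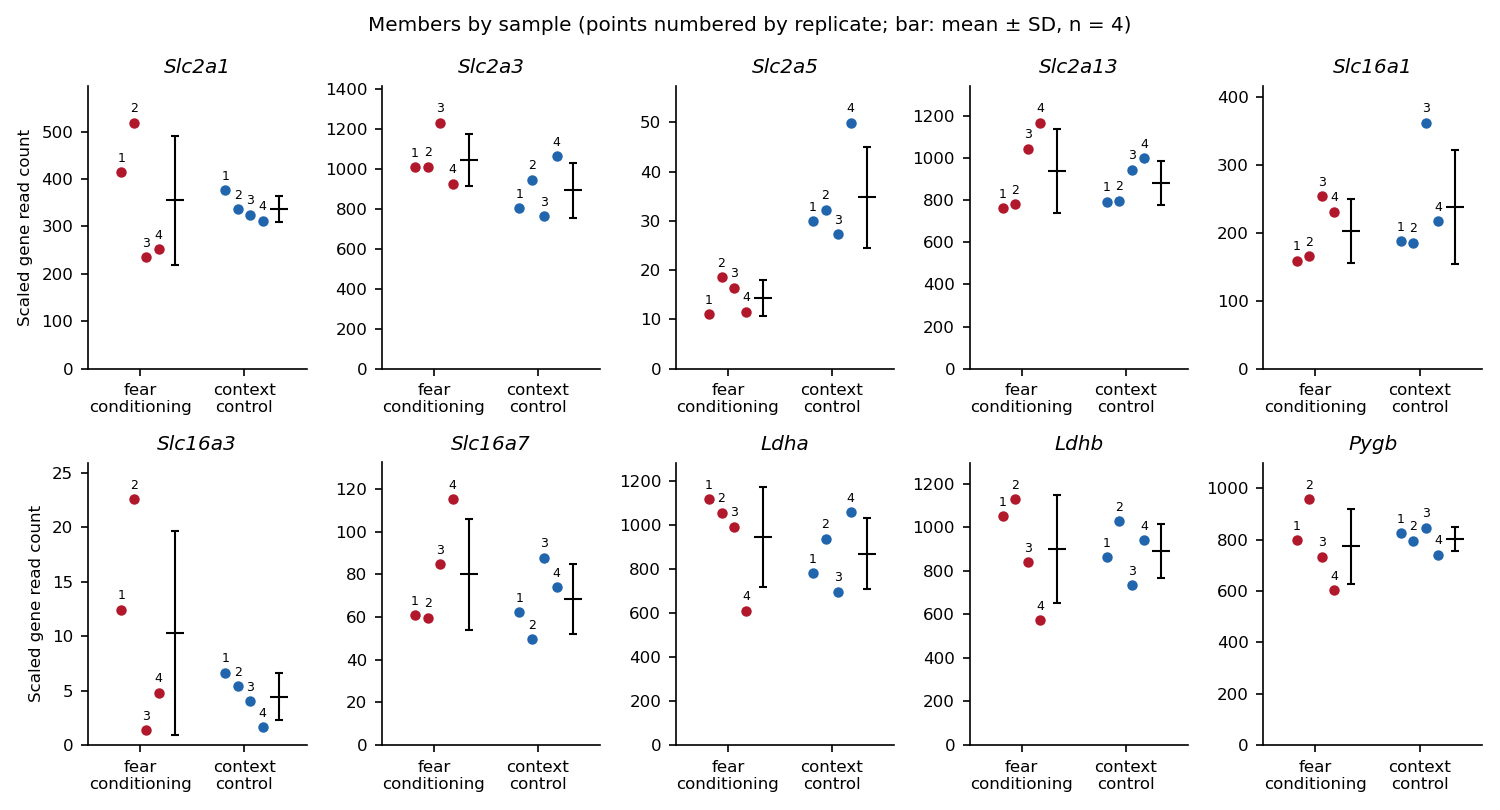
Scaled gene read counts of the 10 members in each sample, fear conditioning in red and context control in blue (points numbered by replicate; bar, mean ± SD, n = 4). Slc2a5 is separated, from 11.0 to 18.6 in fear conditioning and from 27.2 to 49.9 in context control, and the groups overlap for the other 9.

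Markers of the cells that carry these proteins were read in the same libraries. All 12 astrocyte markers were lower in fear conditioning (median log2 change -0.32), with a sum of 16117 to 18529 in fear conditioning and 16450 to 22836 in context control, and the groups did not overlap for 2 of the 12, the gap junction gene Gja1 and Mlc1, where 1.92% of all tested genes did not overlap. All 13 oligodendrocyte markers (median -0.49), all 5 of their precursors (-0.19), all 6 mural markers (-0.42) and all 10 tested markers of meninges and choroid plexus (-0.55) were also lower, and among these Neu4, a precursor marker, was the one gene whose groups did not overlap. Of 11 neuronal markers, 9 were higher and 2 lower (median 0.09), with a sum of 21210 to 24891 in fear conditioning and 19582 to 24888 in context control. The 2 blood markers tested were both lower (median -0.87). None of these genes passed the test, the sums of every list overlapped between groups, and the part of cell makeup in the values of the members was not tested.

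Among the glucose transporters, Slc2a1 (chr4:119108711-119137983, plus strand) read 414, 519, 235 and 251 scaled counts in fear conditioning replicates 1 to 4, against 376, 336, 325 and 312 in context control replicates 1 to 4. Conditioned replicates 1 and 2 stood above every control and replicates 3 and 4 below every control, so that the log2 change was -0.0029 (95% confidence interval -0.51 to 0.51). The SD was 136 in fear conditioning and 27.7 in context control. Slc2a3, the neuronal glucose transporter (chr6:122727809-122801640, minus strand), read 1008, 1011, 1231 and 927 in fear conditioning, against 802, 945, 763 and 1064 in context control. All 4 conditioned samples lay above the control mean of 894, and 1 of them above every control. Its log2 change was 0.23 (95% confidence interval -0.10 to 0.56).

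Slc2a13 (chr15:91267696-91573261, minus strand) encodes a proton-coupled myo-inositol transporter that is grouped with the hexose transporters by sequence. It read 764, 783, 1047 and 1170 scaled counts in fear conditioning replicates 1 to 4, against 793, 799, 947 and 1001 in context control replicates 1 to 4. Replicates 3 and 4 were the higher ones in both groups. The log2 change was 0.07 (95% confidence interval -0.29 to 0.43).

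Of the lactate carriers, Slc16a1 (chr3:104638668-104658462, plus strand) read 159, 166, 254 and 231 scaled counts in fear conditioning replicates 1 to 4, against 188, 185, 362 and 217 in context control replicates 1 to 4. Its highest value was in context control replicate 3, and the log2 change of -0.20 (95% confidence interval -0.73 to 0.32) became 0.02 without that sample. That sample also had the highest sum of 13 oligodendrocyte markers, 13162 scaled counts. The other controls had 3061 to 5689 and the conditioned samples 3177 to 5426. Its endothelial sum, 2066, was the highest of all samples as well. The same held for its mural, astrocyte, microglial, oligodendrocyte precursor, meningeal and blood sums, but not for its neuronal sum. MCT1 is known from oligodendrocytes as well as endothelium, and the part of this sample's cell makeup in the Slc16a1 value was not tested. The 10 endothelial markers were all lower in fear conditioning (median -0.26), with a sum of 1069 to 1909 in fear conditioning and 1348 to 2066 in context control.

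Slc16a7, the neuronal carrier (chr10:125219270-125389465, minus strand), read 60.8, 59.7, 84.7 and 115 scaled counts in fear conditioning replicates 1 to 4, against 62.3, 49.7, 87.7 and 74.0 in context control replicates 1 to 4. Its log2 change was 0.20 (95% confidence interval -0.40 to 0.80), and with a sample left out it lay between 0.011 (without fear conditioning replicate 4) and 0.33 (without context control replicate 3). The ratio of Slc16a1 to Slc16a7 scaled counts within a library was 2.60 ± 0.425 in fear conditioning and 3.45 ± 0.575 in context control (SD, n = 4 each), with 3.00 in the highest conditioned sample and 2.93 in the lowest control. Slc16a3, the astrocytic carrier (chr11:120948480-120960868, plus strand), was close to the limit of detection. It read 12.4, 22.5, 1.37 and 4.80 in fear conditioning, which are 9, 17, 1 and 5 reads, against 6.64, 5.37, 4.03 and 1.61 in context control, which are 8, 4, 4 and 1 reads. Its log2 change of 0.69 had a 95% confidence interval of -0.80 to 2.18, and it was 0.18 without fear conditioning replicate 2, 1.28 without fear conditioning replicate 3, 1.10 in edgeR and 1.16 in DESeq2.

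Lactate dehydrogenase interconverts pyruvate and lactate as a tetramer of A and B subunits, and the B subunit is the more favourable to lactate use. Ldha (chr7:46841475-46855627, plus strand) read 1116, 1055, 992 and 610 scaled counts in fear conditioning replicates 1 to 4, against 780, 937, 697 and 1057 in context control replicates 1 to 4. Ldhb (chr6:142490249-142507957, minus strand) read 1052, 1129, 839 and 575 in fear conditioning, against 863, 1027, 735 and 940 in context control. Both genes were lowest in fear conditioning replicate 4, and their log2 changes were 0.10 for Ldha (95% confidence interval -0.34 to 0.54) and -0.02 for Ldhb (-0.47 to 0.42). With a sample left out, the change of Ldha lay between 0.0015 (without context control replicate 3) and 0.30 (without fear conditioning replicate 4). The ratio of Ldha to Ldhb scaled counts, taken within each library, was 1.06 ± 0.101 in fear conditioning and 0.972 ± 0.104 in context control (SD, n = 4 each). The groups overlapped, from 0.934 to 1.18 in fear conditioning and from 0.904 to 1.13 in context control. The annotation names 2 pseudogenes of Ldha, and how reads shared with them were counted is not given in the sources used here.

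Pygb (chr2:150786735-150831758, plus strand) encodes the enzyme that releases glucose phosphate from glycogen. It read 798, 956, 734 and 603 scaled counts in fear conditioning replicates 1 to 4, against 824, 795, 846 and 740 in context control replicates 1 to 4. The log2 change was -0.07 (95% confidence interval -0.40 to 0.26). The conditioned samples spread more widely, with an SD of 147 in fear conditioning and 45.7 in context control, and included both the highest and the lowest value of all 8.

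Levels can be set between genes only per length, and for this the scaled counts were divided by the exon length of each gene in GENCODE vM21 (GRCm38). Ldhb was highest, with a mean of 570 ± 116 scaled counts per kb over the 8 samples (SD), followed by Ldha with 274 ± 56.5, and every Ldhb value lay above every Ldha value. Pygb (164 ± 21.1), Slc2a3 (134 ± 20.4), Slc2a13 (109 ± 18.02) and Slc2a1 (98.7 ± 26.0) came next, and the ranges of neighbours in this order overlapped. Slc16a1 stood at 49.8 ± 14.9. Slc2a5 (7.23 ± 3.83), Slc16a7 (6.27 ± 1.78) and Slc16a3 (1.38 ± 1.32) were the lowest, with all Slc16a1 values above all Slc2a5 values. Exon lengths ran from 1570 bases for Ldhb to 11839 for Slc16a7. With the length of the longest transcript in place of all exon bases, an alternative added after seeing the data, the order of the means was the same, but Ldhb (686 ± 139 per kb) and Ldha (499 ± 103) overlapped, while every Ldha value lay above every Pygb value.

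The spread of 5 members, Slc16a7, Slc2a13, Slc16a1, Ldhb and Slc2a1, ran with the base composition of the libraries. The share of all tested genes that did so was not counted, so this is not shown to be particular to the members. The GC tilt of a library was taken as the median log2 deviation of genes in the top 25% by transcript GC content (at least 53.3%) minus that of genes in the bottom 25% (at most 44.2%), over 6473 well-expressed genes with the members left out. It was 0.52, 0.61, -0.23 and -0.90 in fear conditioning replicates 1 to 4, against 0.23, 0.42, -0.51 and -0.17 in context control replicates 1 to 4. Replicates 1 and 2 were positive and replicates 3 and 4 negative in both groups, and the conditioned samples held both the highest and the lowest tilt. This measure was chosen after the data had been seen, and the labels name no batch. The same measure by transcript length, genes of at least 5612 bases minus genes of at most 2802, was -0.09, -0.17, 0.04 and 0.44 in fear conditioning replicates 1 to 4, against -0.04, -0.09, 0.10 and -0.18 in context control replicates 1 to 4. Slc16a7 (10981 bases) and Slc2a13 (6536) have long transcripts and Ldhb (1304) and Ldha (1815) short ones, and the part of length in the spread of the members was not tested.

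Members poor in GC were higher where the tilt was low. Slc16a7 (transcript GC 37.7%) had r = -0.94 and rho = -0.93 with the tilt over the 8 samples (exact permutation adjusted p = 0.0047 for r and 0.0112 for rho, over the 10 members), and r = -0.91 without the 2 samples farthest from the median tilt, fear conditioning replicates 2 and 4. Slc2a13 (45.3%) had r = -0.93 and rho = -0.88 (exact permutation adjusted p = 0.0083 and 0.0181), and r = -0.86 without those samples. Slc16a1 (42.9%) had r = -0.77 and rho = -0.90 (exact permutation adjusted p = 0.0395 and 0.0152), and r = -0.94 without them. For these 3 genes r was negative within the fear conditioning group and within the context control group alike, between -0.999 and -0.835.

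Members rich in GC went the other way. Ldhb (53.0%) had r = 0.94 and rho = 0.98 (exact permutation adjusted p = 0.0047 and 0.0040), and r = 0.87 without those 2 samples. Slc2a1 (54.0%) had r = 0.80 and rho = 0.86 (exact permutation adjusted p = 0.0395 and 0.0214), and r = 0.64 without them. Ldha, Pygb and Slc16a3 were also positive, at r = 0.75, 0.74 and 0.63 and rho = 0.69, 0.57 and 0.76, but did not pass (exact permutation adjusted p for r of 0.0519, 0.0517 and 0.125, and for rho of 0.0991, 0.189 and 0.0613). The Pygb relation rested on the 2 farthest samples, since r was 0.09 without them, and r was 0.46 for Ldha and 0.73 for Slc16a3. Slc2a3 (47.4%) had r = 0.15 and rho = 0.29, and Slc2a5 (53.2%) r = 0.08 and rho = 0.05 (exact permutation adjusted p of 0.802 and 0.838 for r, 0.556 and 0.935 for rho).

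**Figure D3:**
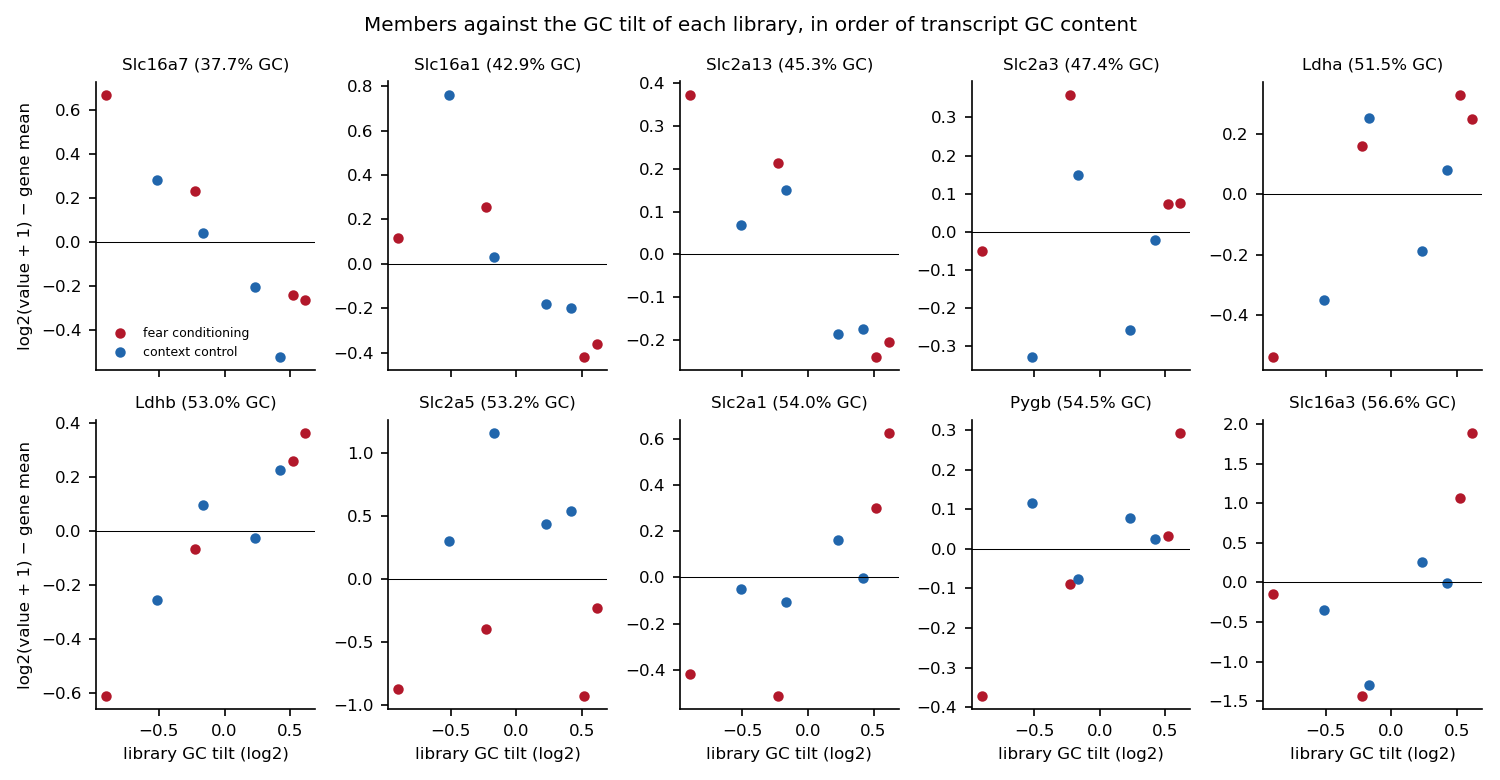
Log2(value + 1) of each member minus its mean over the 8 samples, against the GC tilt of the library (log2), fear conditioning in red and context control in blue. Panels run from the lowest transcript GC content (Slc16a7, 37.7%) to the highest (Slc16a3, 56.6%). The slope is downward for Slc16a7, Slc16a1 and Slc2a13 and upward for Ldhb and Slc2a1, while the Slc2a5 points divide by group.

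When a smooth curve of each library's deviation on GC content was subtracted, the spread within groups was smaller for 9 of the 10 members. The curve was fitted to these same libraries, with well-expressed members among its genes, so a smaller spread is partly built in. The share of all genes with a smaller spread was not counted. The pooled SD of log2 values was 0.15 after and 0.40 before the correction for Slc16a7, 0.10 and 0.25 for Slc2a13, 0.20 and 0.34 for Ldhb, and 0.27 and 0.40 for Slc2a1. For Slc2a3 it was 0.23 after and 0.20 before. The log2 changes of the 9 members tested lay between -0.23 and 0.65 after correction, and none passed (limma, smallest adjusted p = 0.942, for Slc2a3). The intervals were narrower, with -0.16 to 0.26 for Slc2a13, -0.33 to 0.22 for Ldhb, -0.36 to 0.16 for Pygb, -0.37 to 0.31 for Slc2a1 and -0.22 to 0.56 for Slc16a7. Slc2a5 was lower by a log2 change of -1.24 (SE 0.32) after correction, and its groups again did not overlap.

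**Figure D4:**
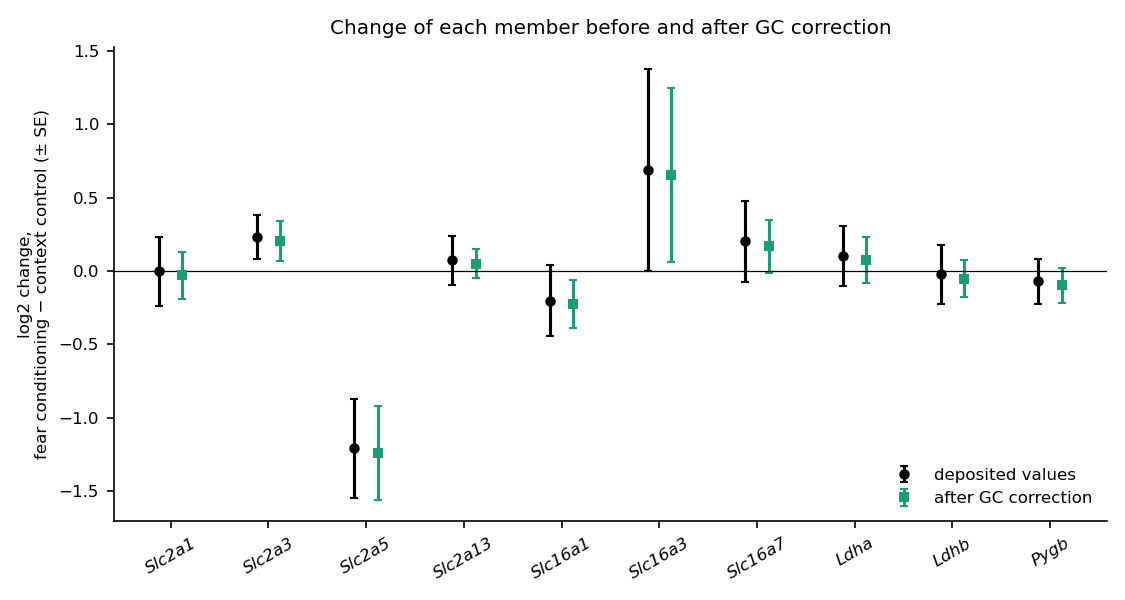
Log2 change of each member, fear conditioning minus context control, with SE, from the deposited values (black circles) and after GC correction (green squares). Slc2a5 stands at -1.21 and -1.24, and the other 9 members lie between -0.23 and 0.69 in the pair of fits.

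The rest of the pathway was described by 10 lists holding 109 genes, of which 102 were tested. None passed, 56 were higher and 46 lower in fear conditioning, and the median log2 change was 0.02, where all 14704 tested genes had 0.0095. Of the 15 glycolytic enzymes 12 were higher and 3 lower, with a median of 0.08. Hk1, the main brain hexokinase, averaged 1330 ± 281 in fear conditioning and 1125 ± 175 in context control (SD, n = 4 each), and Hk2, its inducible relative, averaged 12.5 ± 7.59 in fear conditioning and 21.9 ± 4.56 in context control. The sum of the 15 enzymes followed the same samples as Ldhb, with 16471, 16598, 13436 and 8351 scaled counts in fear conditioning replicates 1 to 4, against 11582, 14984, 9625 and 13516 in context control replicates 1 to 4.

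Glycogen genes were higher in 10 and lower in 8 of 18, with a median log2 change of 0.05. Epm2a, the glycogen phosphatase laforin, averaged 49.3 ± 6.55 in fear conditioning and 36.3 ± 7.58 in context control, and Nhlrc1, which encodes its partner malin, 102 ± 37.7 in fear conditioning and 126 ± 6.31 in context control (SD, n = 4 each). Glycogen synthase, Gys1, averaged 61.5 ± 17.8 in fear conditioning and 66.4 ± 5.80 in context control, and the muscle phosphorylase Pygm, which astrocytes also express, 94.9 ± 34.8 in fear conditioning and 79.4 ± 12.7 in context control. Genes that carry pyruvate into the mitochondrion and oxidise it were higher in 12 and lower in 6 of 18 (median 0.03). Pdk4, a kinase that switches pyruvate dehydrogenase off, averaged 91.9 ± 32.6 in fear conditioning and 126 ± 56.8 in context control.

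Among the other hexose transporters, 7 of 11 were tested, with 1 higher and 6 lower (median log2 change -0.34). Slc2a8 averaged 25.4 ± 19.2 in fear conditioning and 32.8 ± 13.8 in context control, and the insulin-responsive transporter Slc2a4 averaged 3.93 ± 4.52 in fear conditioning and 4.22 ± 1.51 in context control (SD, n = 4 each). Of the other monocarboxylate carriers 5 were higher and 6 lower of 11 tested (median -0.16). Slc5a12, a sodium-coupled lactate carrier, was the 1 pathway gene of 102 tested whose groups did not overlap (1.92% of all tested genes did not), with 2 reads in each of the 4 conditioned samples and 1, 0, 0 and 0 reads in context control replicates 1 to 4. Slc16a5 had 1, 6, 7 and 4 reads in fear conditioning replicates 1 to 4, against 1, 2, 0 and 0 in context control replicates 1 to 4.

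MCT1 and MCT4 reach the cell surface with basigin and MCT2 with embigin. Bsg averaged 849 ± 188 in fear conditioning and 854 ± 138 in context control, and Emb averaged 137 ± 30.4 in fear conditioning and 136 ± 42.1 in context control (SD, n = 4 each). The lactate receptor gene Hcar1, listed as Gpr81, averaged 5.42 ± 1.93 in fear conditioning and 6.33 ± 2.87 in context control. Fructose and polyol genes were higher in 3 and lower in 2 of 5 tested (median log2 change 0.08). Among them, Sord, sorbitol dehydrogenase, averaged 119 ± 26.9 in fear conditioning and 101 ± 11.2 in context control. Pentose phosphate genes were higher in 4 and lower in 4 of 8 (median -0.06), with H6pd, the enzyme of the endoplasmic reticulum, at 15.9 ± 7.26 in fear conditioning and 26.8 ± 6.38 in context control.

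Regulators of glycolysis were higher in 7 and lower in 5 of 12 (median log2 change 0.05). Pfkfb3, which makes the activator of phosphofructokinase, averaged 178 ± 28.3 in fear conditioning and 175 ± 41.9 in context control, and its relative Pfkfb2 averaged 209 ± 40.0 in fear conditioning and 165 ± 24.8 in context control (SD, n = 4 each). Txnip, a glucose-responsive brake on glucose uptake, averaged 93.4 ± 45.9 in fear conditioning and 126 ± 30.2 in context control. Of 5 genes of inositol transport and metabolism, 1 was higher and 4 lower (median -0.20). The exception was the sodium-coupled inositol transporter Slc5a3, at 356 ± 111 in fear conditioning and 290 ± 73.1 in context control.

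**Figure D5:**
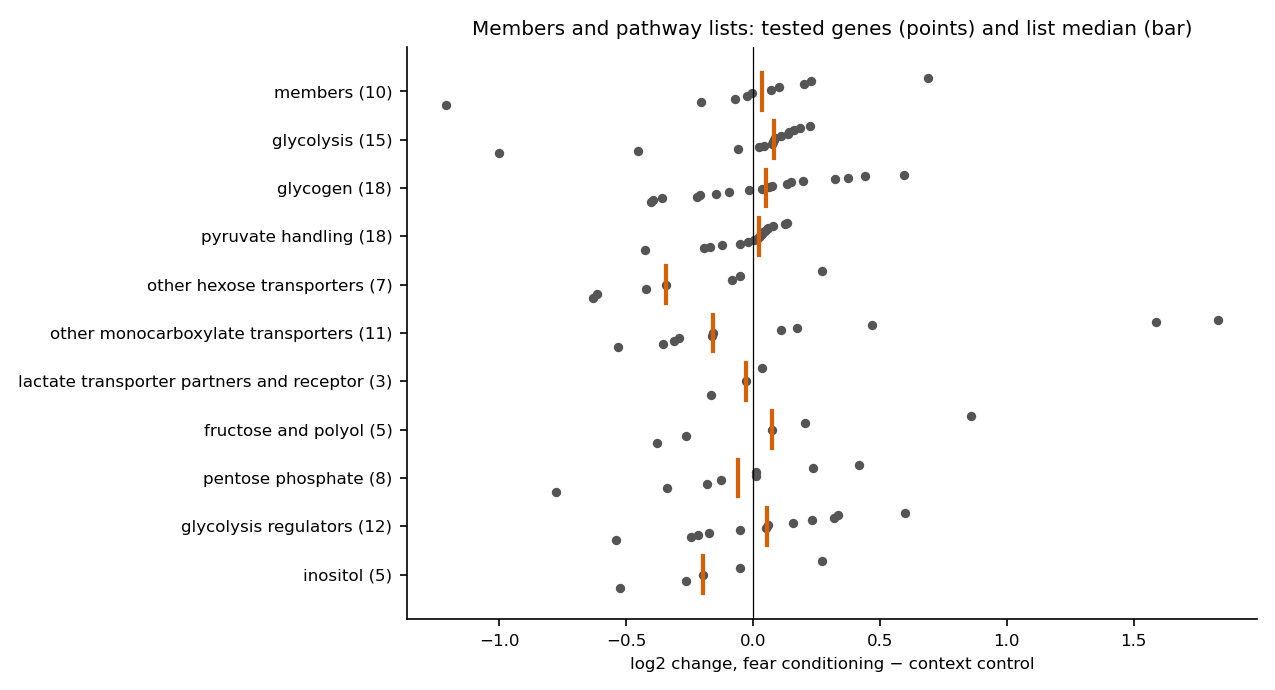
Log2 change, fear conditioning minus context control, of every tested member and pathway gene (points) with the median of each list (orange bar) and the number of genes tested in brackets. List medians lie between -0.34 for the other hexose transporters and 0.08 for glycolysis. The 2 points beyond 1.5 are Slc5a12 and Slc16a5, with at most 7 reads in any sample.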

How the data were processed

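Values were deposited by the authors as 1 table of 22609 gene symbols and 8 columns, all used. It is named FPKM, but 100% of the values above 0 in each column are whole multiples of 1 step, within 0.01 of a read, so the deposited signal is a read count divided by a factor per sample. TopHat and HTSeq, without versions, and the human build hg19 are named per the submitters' processing notes. The sources used here give neither the annotation nor whether strand was kept. Genes on the opposite strand share 3.00% of the exon bases of Slc2a1 and 1.51% of those of Slc16a7, and without strand such reads cannot be told apart.

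Groups follow the sample titles. Genes with a mean of at least 1 (14704) were compared as log2(value + 1) in limma 3.58.1 under R 4.3.3 with a variance trend. The test was two-sided, p-values were adjusted over all genes by Benjamini-Hochberg, and the threshold was 0.05. This test had been planned for FPKM values and was kept for the scaled counts. Fold changes on this scale understate those of low genes. The limma p-values set the difference between the groups against the spread between these samples. edgeR 4.0.16 (quasi-likelihood) and DESeq2 1.42.0 were run on recovered reads, with other pseudocounts, filters, scalings, array weights and each sample left out as alternatives. The fits were tested on simulated data. Permutation tests were two-sided.

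GC content and transcript length came from the longest GENCODE vM21 transcript (98.8% of tested genes). The correction, added after seeing the data, subtracted a lowess curve (span 0.3). List genes were matched by symbol, 6 of 109 by an older one. Members and lists were chosen with earlier results of these data known. Named genes were all members, the 2 of smallest p in each list, 10 fixed genes and the 5 nearest to Slc2a5. One gene that the rule names is not reported here.

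Groups share replicate numbers. Deviations of same-numbered samples from their group means correlated at 0.16 to 0.41 over 12043 genes, above 0.1 in all 4 pairs. Differently numbered samples correlated at -0.58 to 0.64, so these values do not establish that the numbers are pairs. The numbers were taken as pairs in an alternative fit with the replicate number as a block. In 1 of 4 cases a sample correlated best with its own number.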

Additional observations from a re-analysis of the deposited data

Results flagged for a closer look

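Values of the 10 members and 25 other named pathway genes were examined for a sample far from the other 3 of its group, in 70 groups of 4. Such a gap was found in 4 (5.71%), and chance alone gives about 1 in 20. No member was among them. Hk1 was 909 in fear conditioning replicate 4, the library of lowest GC tilt, where the highest conditioned sample had 1487. Pdk4 was 211 in context control replicate 3, where the lowest control had 90.5. That library had the highest sum of every marker list except the neuronal one. Slc5a12 was 1.92 in fear conditioning replicate 4, from 2 reads as in the other conditioned samples, so that gap is one of scaling and not of reads. It was 0.831 in context control replicate 1, from 1 read, where the other controls had 0.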

How the results depend on the processing

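Of the 9 members other than Slc2a5, none passed under any of the 20 alternative fits, planned or added. Over all genes the count past the threshold was 0 in each alternative except one, and lay between 0 and 1 with a sample left out, the 1 being Uevld without fear conditioning replicate 4 (limma, log2 change -2.79, adjusted p = 0.0064). The replicate block changed no call (0 genes, 594 at an unadjusted p under 0.05), nor did GC correction alone (0 and 782) or with the replicate block (0 and 841). The log2 change of Slc2a5 lay between -1.34 (without fear conditioning replicate 2) and -0.86 (pseudocount 10), and its sign is fixed by the separation of the groups from which it was chosen. The median of the members lay between -0.04 and 0.11.

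Members near 0 changed sign. Slc2a1 was 0.058 in edgeR, 0.061 in DESeq2 and 0.097 with array weights, and between -0.21 and 0.17 with a sample left out. Ldhb was 0.00077 in edgeR, 0.0016 in DESeq2 and 0.12 with array weights, and between -0.15 and 0.18 with a sample left out. Slc2a13 was -0.0086 with quantile normalization and between -0.042 and 0.16 with a sample left out. Leaving out a sample gave -0.32 to 0.015 for Slc16a1 and -0.18 to 0.043 for Pygb. The cause was not tested. With a mean of at least 10 as filter Slc16a3 was not tested. Slc5a12 and Slc16a5, both with few reads, moved with the pseudocount. Depth limits Slc2a5, Slc16a3 and these carriers most.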
